A study of Mus musculus with 9 samples.

Results

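The brain holds few lymphocytes, and their transcripts were followed here through 9 genes in whole brains of young and old mice. The genes were chosen by name from the 49315 rows of the count table. They cover the T cell receptor complex and its CD8 co-receptor (Cd3e, Cd3d, Cd3g, Cd8a), the effectors of cytotoxic lymphocytes (Ccl5, Nkg7), and the immunoglobulin transcripts of B cells and plasma cells (Igkc, Ighm, Jchain). The samples were whole brains of wild-type male C57BL/6J mice, 5 young (3 months by the labels, 3 or 4 months by the study's methods) and 4 old (33 months), 1 brain per library, sequenced after polyA selection. No cells were sorted, and by the methods the organs were washed in PBS with no perfusion named. Lymphocytes of the parenchyma, of the meninges and of blood in the vessels therefore enter the same libraries. Whether more lymphocytes or more RNA per lymphocyte lie behind a higher count cannot be told apart in such bulk samples.

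T cells recognise peptides on MHC molecules through a receptor whose signal is carried by the CD3 chains, and CD8 binds MHC class I on the target cell. Cytotoxic T cells and natural killer cells carry granules, of which Nkg7 is a membrane component, and secrete the chemokine Ccl5. Plasma cells are the end stage of B cells and secrete antibodies, which are built from heavy and light chains and, in IgA and IgM, are held together by the joining chain. Each B cell clone joins 1 V segment to its light chain gene and 1 to its heavy chain gene, so the V segments in a sample reflect the clones it holds.

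In the old brains Cd8a, Ccl5 and Igkc were higher, by 6.85-fold, 3.52-fold and 21-fold in edgeR's fit, whereas Ighm was near the young level, at 0.968-fold. The Igkc difference passed edgeR's test among genes kept by a filter on low counts (adjusted p = 0.0259). It did not pass among all genes with a count (adjusted p = 0.0814), the fit used for Cd8a and Ccl5. As each of the 9 mice was left out in turn, Cd8a kept its call in 9 fits and Ccl5 in 5. Igkc kept its call in 3 such fits of the filtered genes. Old replicate 4 held 222 of the 345 old Igkc counts. The counts behind these folds were small. Over all 9 libraries the members gathered between 11 counts (Cd3g) and 2645 counts (Ighm), of 14229259 to 21150439 counts per library. Raw counts per mouse are therefore given first. Mice are listed in the order young replicates 1, 2, 3, 4 and 5 and old replicates 1, 3, 4 and 5, a second old replicate being not analysed here.

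Several libraries carried other signals that bear on these counts. In old replicate 4, 8 neutrophil markers (S100a8, S100a9, Ngp, Camp, Ltf, Retnlg, Elane, Mpo) summed to 104 CPM (counts scaled by the library total), against 3.36 to 6.51 CPM in the other old and 1.10 to 2.27 CPM in the young mice. Elane, which marks immature neutrophils, had 47 counts there, 1 in each of the other old mice and 0 in 4 of the 5 young mice. The 4 hemoglobin genes summed to 392 CPM in old replicate 4 and to 254, 120 and 162 CPM in old replicates 1, 3 and 5, against 84.5 to 109 CPM in the young mice. Young replicate 4 had the most young counts of the pan-leukocyte gene Ptprc, 245 against 43 to 67. Results are given with and without these mice where they change. Some fits also took the hemoglobin or the neutrophil sum of each mouse as a covariate. Both sums were higher in every old than in every young mouse. Such a fit cannot separate the covariate from age, so a call lost or kept in it does not tell them apart.

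A gene was called where edgeR's quasi-likelihood test gave a p under 0.05 after Benjamini-Hochberg adjustment and the log2 fold change exceeded 0.58 in size. The filter on low counts kept 18492 genes, of which 394 were called higher in old brain (2.13%). It kept 3 of the 9 members, Igkc, Ighm and Jchain, and 1 of these, Igkc, was called higher. Igkc passed the filter only through the old mice, at 1.05 to 12.1 CPM against at most 0.351 CPM in the young. In the fit of all genes with a count Igkc was not called (edgeR, adjusted p = 0.0814). The other 6 members were too low for the filter. They were read from a fit of all 35028 genes with at least 1 count, in which 422 genes (1.2%) and 2 of the 9 members, Cd8a and Ccl5, were called higher. In CPM, every old mouse lay above every young mouse for 5 members (Cd3d, Cd3g, Cd8a, Ccl5 and Igkc), and for 3.78% of all genes with a count.

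**Figure D1:**
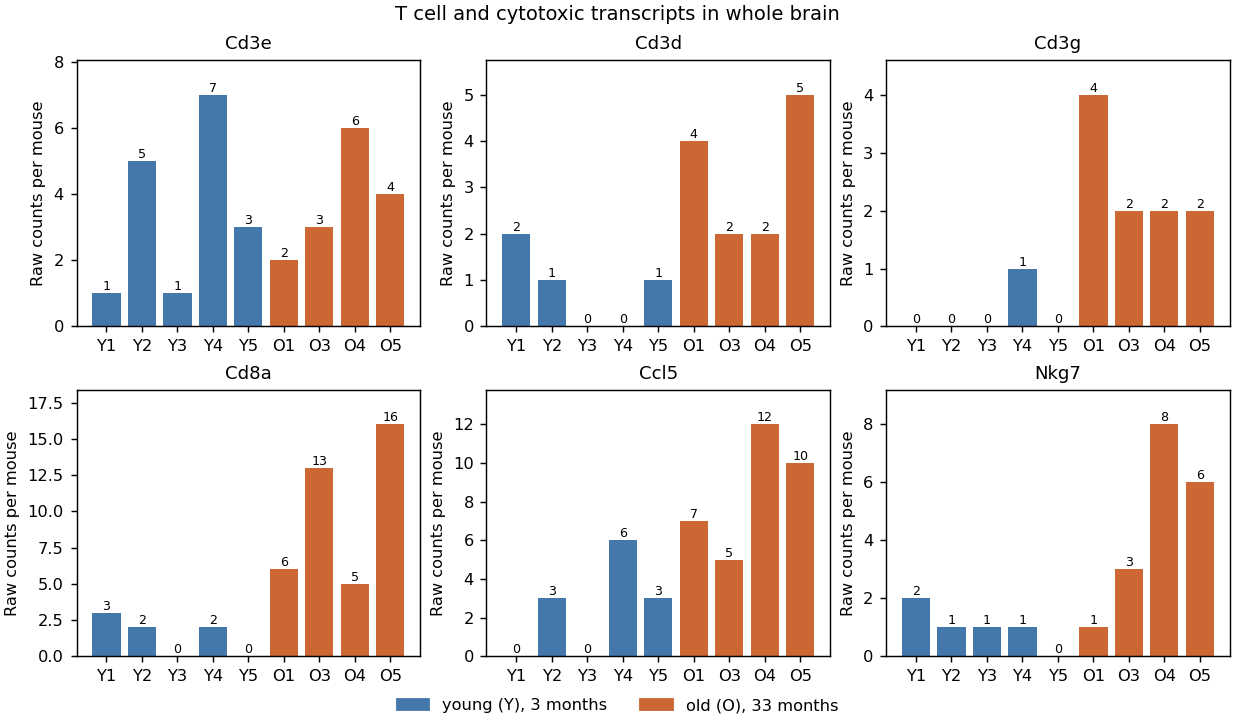
Raw counts per mouse (vertical axes) of the 6 T cell and cytotoxic transcripts in 5 young (Y, blue) and 4 old (O, orange) brains, 1 bar a mouse. Cd8a reached 16 counts in an old mouse and at most 3 in a young one, whereas Cd3e was spread from 1 to 7 counts over both ages.

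Cd8a encodes the alpha chain of the CD8 co-receptor of cytotoxic T cells and lies on mouse chromosome 6 (GRCm38, chr6:71373427-71379173, plus strand, ENSMUSG00000053977). Its raw counts were 3, 2, 0, 2 and 0 in the young and 6, 13, 5 and 16 in the old mice. The ages did not overlap, and old replicates 3 and 5 were highest. The log2 fold change was 2.78 ± 0.58 (SE) at an adjusted p of 0.00176 in edgeR's quasi-likelihood test (5 young and 4 old mice). Pooled over the mice of each age, the rate of counts was 7.43 times higher in old brain, with an exact 95% interval of 3.29 to 19.7 that covers counting error only. Cd8a was lowest among the old mice in replicate 4, at 0.273 CPM, the mouse with the most neutrophil and hemoglobin counts. Old replicate 3, with the least hemoglobin of the old mice, had 0.91 CPM. The call held when any 1 mouse was left out (adjusted p from 0.000503 to 0.0147). With hemoglobin as a covariate the log2 fold change was 4.04 (edgeR, adjusted p = 0.00111), and with the neutrophil sum it was 3.61 (adjusted p = 0.000977). The part of blood or marrow RNA in the Cd8a counts was not tested.

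The beta chain of CD8 is encoded by Cd8b1, which is not a member and gave a second count of the same co-receptor in the same libraries. It had 2, 0, 0, 1 and 0 counts in the young and 2, 6, 7 and 4 in the old mice. Only old replicate 1 was at a young level in counts. In the fit of all genes Cd8b1 was called higher, at a log2 fold change of 2.79 ± 0.75 (SE, edgeR, adjusted p = 0.0167). It was not called without old replicate 3 or 4 (adjusted p = 0.0626 and 0.0676), nor with the hemoglobin or neutrophil covariate (0.269 and 0.206). Cd4, the co-receptor of helper T cells, had 77 to 146 counts in the young and 80 to 117 in the old mice and a log2 fold change of -0.13 (edgeR, adjusted p = 0.607). The 3 CD3 chains together had 1 to 8 counts in the young and 7 to 11 in the old mice. The Cd4 counts can therefore not be taken as a measure of helper T cells here.

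The CD3 chains pair up to carry the signal of the T cell receptor. Cd3g and Cd3d are head to head on chromosome 9 with 1354 bases between them (Cd3g chr9:44969572-44980431, minus strand, and Cd3d chr9:44981786-44987339, plus strand), and Cd3e lies beside them (chr9:44998740-45009627, minus strand). Cd3g, the gamma chain, had 0, 0, 0, 1 and 0 counts in the young and 4, 2, 2 and 2 in the old mice. A count of 0 allows up to 3 counts, or up to 0.157 to 0.211 CPM in the 4 young libraries at 0, and the old libraries stood at 0.109 to 0.213 CPM. Old replicate 1 was above these limits, and for the other 3 old libraries a difference from a young library at 0 was not detectable at this depth. The pooled rate was 13 times higher in old brain with an exact 95% interval of 1.85 to 564, and edgeR gave an adjusted p of 0.0652. Without young replicate 4, which held the single young count, edgeR's adjusted p for Cd3g was 0.0336, and as other single mice were left out it ran from 0.0851 to 0.192. It was 0.498 with the hemoglobin and 0.245 with the neutrophil covariate.

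Cd3d, the delta chain, had 2, 1, 0, 0 and 1 counts in the young and 4, 2, 2 and 5 in the old mice. Its log2 fold change of 1.91 ± 0.74 (SE) did not pass the test (edgeR, adjusted p = 0.141). Cd3e, the epsilon chain, showed 1, 5, 1, 7 and 3 young counts beside 2, 3, 6 and 4 old counts. The ages overlapped fully for Cd3e, with its highest count in young replicate 4, and the log2 fold change was 0.18 ± 0.55 (SE, edgeR, adjusted p = 0.916). The annotation places an antisense gene, Gm48719, over Cd3e. Gm48719 had 0 to 3 counts, and the sources used here do not say whether these libraries kept strand, so reads of the pair may not be separated. Summed, the 3 chains reached 3, 6, 1, 8 and 4 counts in the young and 10, 7, 10 and 11 in the old mice, which overlap in counts. In CPM these sums ran from 0.0703 to 0.378 in the young and from 0.490 to 0.644 in the old mice, and did not overlap.

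Receptor genes other than the CD3 chains did not follow this order. Trbc2, a constant gene of the receptor's beta chain, had 49 to 82 counts in the young and 44 to 58 in the old mice, and Trac, that of the alpha chain, 14 to 26 and 11 to 25. The second beta constant gene, Trbc1, had 0 to 2 and 1 to 3 counts. The young mice thus held 49 to 82 Trbc2 counts beside 1 to 8 counts of the 3 CD3 chains together. All rows annotated as T cell receptor constant, V or J genes summed to 6.60 ± 0.27 CPM in the young (SD, n = 5) and 6.15 ± 0.58 CPM in the old mice (n = 4). The difference was not past the threshold (two-sided exact permutation test over all splits of the mice, p = 0.19, the smallest p it can give being 0.0159). The constant genes alone, a part of that sum, were at 4.47 CPM in old against 5.43 CPM in young brain (exact permutation, p = 0.0159, again the smallest possible). Singly, edgeR called neither Trbc2 (log2 fold change -0.31, adjusted p = 0.178) nor Trac (-0.23, adjusted p = 0.674). The receptor V genes went the other way, with 6, 10, 0, 6 and 6 counts in the young and 13, 16, 16 and 9 in the old mice, and overlapped between the ages. Of 144 V genes, 26 had a count in any mouse.

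Ccl5, a chemokine of activated T cells and natural killer cells (chr11:83525778-83530518, minus strand, ENSMUSG00000035042), had 0, 3, 0, 6 and 3 counts in the young and 7, 5, 12 and 10 in the old mice. The highest young count, in replicate 4, was above the lowest old count, in replicate 3, but the ages did not overlap once scaled to library size. The log2 fold change was 1.81 ± 0.52 (SE) at an adjusted p of 0.0284 (edgeR, 5 young and 4 old mice). The pooled rate was 3.68 times higher, with an exact 95% interval of 1.86 to 7.81. The call did not hold without young replicate 1 or 3 or old replicate 4 or 5 (adjusted p from 0.0712 to 0.105). With the hemoglobin covariate the log2 fold change was 1.33 and the adjusted p 0.641, and with the neutrophil covariate they were 1.41 and 0.393 (edgeR).

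Nkg7, a granule membrane protein of cytotoxic lymphocytes (chr7:43437073-43438249, plus strand), had 2, 1, 1, 1 and 0 counts in the young and 1, 3, 8 and 6 in the old mice. Old replicate 1 was within the young range and the other 3 old mice were above it. The log2 fold change of 2.08 ± 0.66 (SE) fell short of the threshold (edgeR, adjusted p = 0.0534), and without old replicate 1 it was 2.45 at an adjusted p of 0.0154. Without old replicate 4 it was 1.70 (adjusted p = 0.253), and as the other single mice were left out the adjusted p ran from 0.0572 to 0.158. With the hemoglobin and neutrophil covariates it was 1.71 and 1.54 (edgeR, adjusted p = 0.624 and 0.487). Per transcript length, the deposited TPM values put Ccl5 highest of these 6 genes in old brain, at 1.19 ± 0.39 TPM (SD, n = 4), and Cd3g lowest, at 0.104 ± 0.041 TPM. The corresponding young levels were 0.307 ± 0.294 and 0.00646 ± 0.0144 TPM (n = 5). Cd8a at 0.384 ± 0.223 TPM and Nkg7 at 0.659 ± 0.428 TPM lay between them in old brain, with overlapping ranges over mice.

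Other T cell genes were counted from lists of 19, 14 and 10 genes. Of the T cell receptor signalling list, 10 genes passed the filter and 1 was called higher. This was Lcp2, an adaptor of receptor signalling that myeloid cells also use, at a log2 fold change of 0.78 ± 0.23 (SE, edgeR, adjusted p = 0.0411), which was not called without old replicate 3 or 4 or young replicate 2, 3 or 5 (adjusted p from 0.0778 to 0.148). With the hemoglobin and neutrophil covariates Lcp2 stood at 0.36 and 0.37 (edgeR, adjusted p = 0.692 and 0.512), and in the fit of all genes at 0.76 (0.0735), and it was called in none of these. Its counts were 52, 29, 22, 55 and 26 in the young and 49, 49, 93 and 50 in the old mice. The median log2 fold change of those 10 genes was 0.031, beside -9.2e-05 over all genes that passed. Of the cytotoxic list, which holds granzymes and killer cell receptors, 3 genes passed, and edgeR, DESeq2's Wald test and limma on log2(TPM + 1) each called 0 of them, none having an unadjusted p under 0.05. In edgeR's fit of all genes 0 of the 14 were called and 2, Gzmb and Il2rb, had an unadjusted p under 0.05. Gzmb, the granzyme of activated killer cells, had 0, 0, 0, 1 and 0 young and 4, 2, 0 and 4 old counts, at a log2 fold change of 3.05 and an adjusted p of 0.0906 in edgeR.

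Of the list for tissue-resident and exhausted T cells, 3 genes passed the filter and 1, Havcr2, was called higher. Havcr2 is an inhibitory receptor that microglia also express, and rose by a log2 fold change of 0.99 ± 0.18 (SE, edgeR, adjusted p = 0.00166), from 22 to 59 young counts to 61 to 90 old counts. The call was lost with the hemoglobin and neutrophil covariates, both at 0.80 (edgeR, adjusted p = 0.167 and 0.0543). DESeq2's Wald test and limma on log2(TPM + 1) each called 2 genes of the list. The second was Lag3, an inhibitory receptor, with 59, 49, 61, 173 and 50 young and 144, 152, 206 and 160 old counts, far above those of the CD3 chains. In edgeR it had a log2 fold change of 1.16 ± 0.33 (SE, adjusted p = 0.0644), and without young replicate 4 it was 1.58 (adjusted p = 3.4e-06). With the hemoglobin and neutrophil covariates the adjusted p of Lag3 was 0.42 and 0.312. In the fit of all genes Cxcr6, a chemokine receptor of tissue-resident T cells, was called as well. It had 3, 0, 2, 5 and 5 counts in the young and 11, 11, 7 and 7 in the old mice, and a log2 fold change of 1.59 ± 0.47 (SE, edgeR, adjusted p = 0.0348). The young and old counts of Cxcr6 did not overlap. Its call did not hold without old replicate 1 or 3 or young replicate 1, 2 or 3 (adjusted p from 0.069 to 0.125), nor with the hemoglobin covariate (1.94, adjusted p = 0.235) or the neutrophil covariate (1.86, 0.101).

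**Figure D2:**
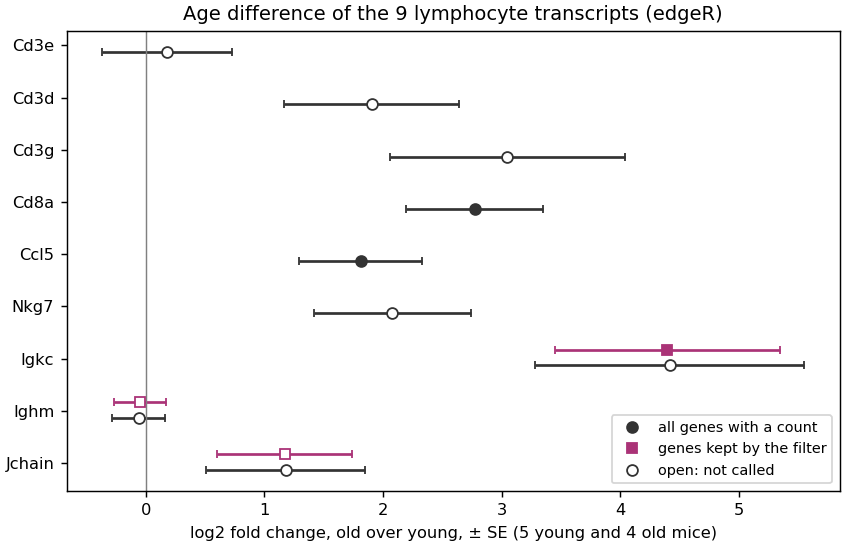
Log2 fold change, old over young, of the 9 transcripts with its standard error (horizontal bars) from edgeR with 5 young and 4 old mice. Circles are from the fit of all genes with a count and squares from the fit of genes kept by the filter, and filled symbols mark a call. Cd8a (2.78), Ccl5 (1.81) and Igkc (4.40, filtered fit) were called, and Ighm lay near 0.

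Igkc encodes the constant region of the kappa light chain, carried by most mouse antibodies, and is a single exon of 532 bases (chr6:70726435-70726966, plus strand, ENSMUSG00000076609) inside the intergenic RNA gene Gm30211, which had no count. Its raw counts were 6, 1, 5, 3 and 5 in the young and 43, 15, 222 and 65 in the old mice. The ages did not overlap, and old replicate 4 alone held more counts than the other 8 mice together. The log2 fold change was 4.40 ± 0.95 (SE) at an adjusted p of 0.0259 in the filtered fit of edgeR. In the fit of all genes it was 4.42 ± 1.14 at an adjusted p of 0.0814. The pooled rate was 22.4 times higher, with an exact 95% interval of 14.3 to 37.2.

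The call of Igkc depended on the mice and on the covariate. Without old replicate 4, the mouse with the neutrophil signal, the log2 fold change was 3.38 and the adjusted p 0.000523 (edgeR). Leaving out any young mouse or old replicate 5 ended the call, with adjusted p from 0.0516 to 0.0657 and log2 fold changes from 4.15 to 4.55. With hemoglobin as a covariate the log2 fold change was 2.07 (edgeR, adjusted p = 0.252), and with the neutrophil sum it was 2.73 (adjusted p = 0.0221). Old replicate 3, whose hemoglobin of 120 CPM was nearest to the young range, had 15 Igkc counts. The part of blood or marrow RNA in these counts was not tested.

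**Figure D3:**
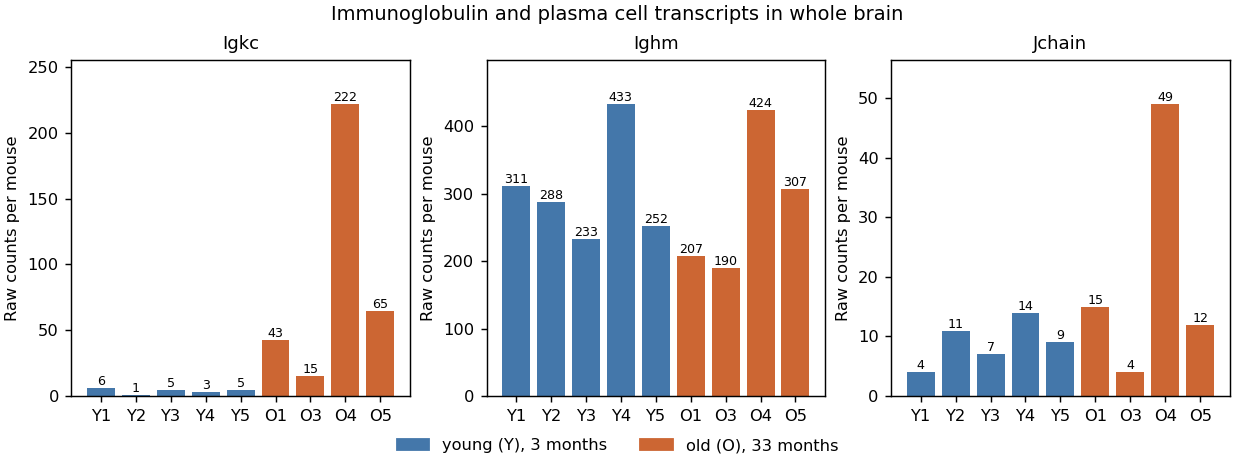
Raw counts per mouse (vertical axes, a different scale in each panel) of Igkc, Ighm and Jchain in 5 young (Y, blue) and 4 old (O, orange) brains, 1 bar a mouse. Igkc was at 1 to 6 counts in the young and 15 to 222 in the old mice, while Ighm ran from 233 to 433 and from 190 to 424.

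Ighm, the constant region of the heavy chain of IgM (chr12:113418558-113422730, minus strand), was by far the most counted member. Its raw counts were 311, 288, 233, 433 and 252 in the young and 207, 190, 424 and 307 in the old mice. The ages overlapped, and replicate 4 was highest at both. The log2 fold change was -0.047 ± 0.21 (SE, edgeR, adjusted p = 0.921). Ighm gave 46.6 to 288 counts per Igkc count in the young and 1.91 to 12.7 in the old mice. With Ighm near level, this ratio restates the Igkc counts. Heavy chain V segments had 1, 2, 3, 0 and 1 counts in the young and 9, 4, 33 and 20 in the old mice, few beside Ighm. Which cells the Ighm counts came from was not tested. Per length, Ighm stood at 23.3 ± 3.82 TPM in the young (SD, n = 5) against 1.19 ± 0.78 TPM for Igkc, and at 20.1 ± 6.5 TPM in the old (n = 4) against 21 ± 21 TPM for Igkc.

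Jchain, the joining chain of IgA and IgM (chr5:88519809-88527891, minus strand), had 4, 11, 7, 14 and 9 counts in the young and 15, 4, 49 and 12 in the old mice. Old replicate 4 stood above the rest and old replicate 3 was at the lowest young count. Its log2 fold change of 1.17 ± 0.57 (SE) did not pass the test (edgeR, adjusted p = 0.229) and was 0.27 without old replicate 4. With the hemoglobin or the neutrophil covariate it turned to -1.25 and -0.47 (edgeR, adjusted p = 0.349 and 0.623).

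The constant genes of switched antibodies, which a B cell uses after it has changed class, were counted next (IgG and IgA, chromosome 12). Ighg2b had 0, 0, 0, 0 and 1 counts in the young and 30, 1, 40 and 39 in the old mice. Old replicate 3 was at the level of the highest young mouse and the other 3 were at 30 counts or more. In the fit of all genes it was called higher (log2 fold change 6.44 ± 1.27, SE, edgeR, adjusted p = 0.027), a value set against a single young count. The call ended without old replicate 1, 4 or 5 or young replicate 5 (adjusted p from 0.0712 to 0.289), and with the hemoglobin and neutrophil covariates (0.361 and 0.209). Ighg1 had 0 counts in every young mouse and 4, 1, 39 and 5 in the old mice (edgeR, adjusted p = 0.478).

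Igha, the heavy chain of the antibody of mucous surfaces, had 1, 4, 1, 4 and 1 counts in the young and 17, 0, 103 and 3 in the old mice. Old replicate 4 held most of them, old replicate 3 had none, and the difference did not pass the test (edgeR, adjusted p = 0.259). Ighg2c was the member of this group that passed the filter and was called there. Its counts were 26, 18, 17, 20 and 19 in the young and 37, 41, 71 and 47 in the old mice, at a log2 fold change of 1.34 ± 0.21 (SE, edgeR, adjusted p = 0.000723). The call held when any 1 mouse was left out (adjusted p from 0.000227 to 0.0034), and with the neutrophil covariate (1.05, adjusted p = 0.0332), but not with the hemoglobin covariate (1.10, adjusted p = 0.104). Ighg2b and Ighg2c are close copies, so reads shared by both may not have been counted.

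**Figure D4:**
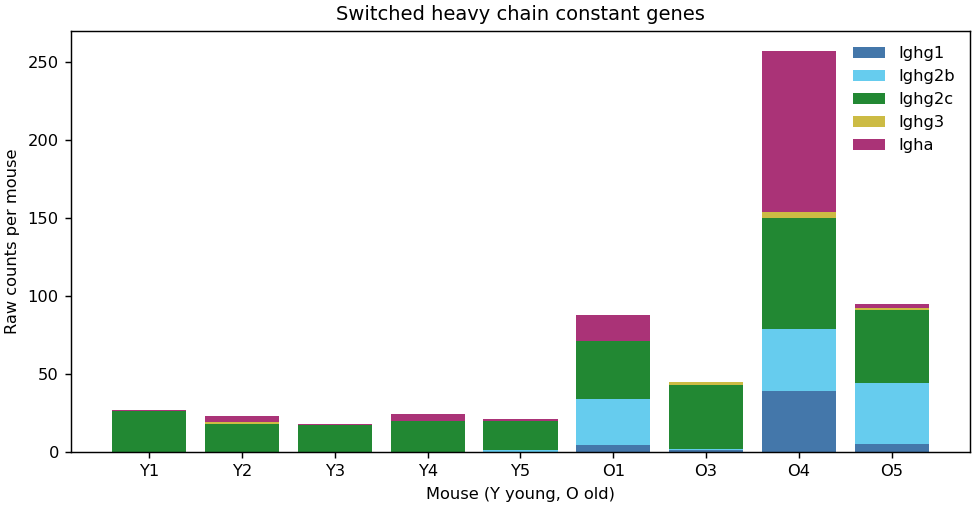
Raw counts per mouse (vertical axis) of 5 switched heavy chain constant genes, stacked, in 5 young (Y) and 4 old (O) brains. The sums were 18 to 27 in the young, where Ighg2c held 100 of 113 counts over the 5 mice, and 88, 45, 257 and 95 in old replicates 1, 3, 4 and 5, where the make-up differed between mice.

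Summed over Ighg1, Ighg2b, Ighg2c, Ighg3 and Igha, the young mice had 27, 23, 18, 24 and 21 counts and the old mice 88, 45, 257 and 95. The largest part was Ighg2c in old replicates 1, 3 and 5, with 37, 41 and 47 counts, and Igha in old replicate 4. Ighd, the heavy chain of IgD on naive B cells, had 0 to 7 young and 2 to 4 old counts. Of the lambda light chain, Iglc1 had 6 and Iglc2 had 4 counts, all of them in old replicate 4. Of the 18 genes of the plasma cell and constant region list 6 passed the filter and Ighg2c was the 1 called. Xbp1, Irf4 and Prdm1, the regulators of plasma cell secretion and identity, had log2 fold changes of 0.11, 0.55 and 0.68 (edgeR, adjusted p = 0.339, 0.393 and 0.342). The surface protein Sdc1 was at -0.0037 (adjusted p = 0.993).

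B cell identity genes were read the same way. Of 10 genes 4 passed the filter, and edgeR, DESeq2's Wald test and limma on log2(TPM + 1) each called 0 of them, Pax5 being the 1 with an unadjusted p under 0.05 in edgeR. In edgeR's fit of all genes 0 of the 10 were called and 2 had such a p. Ms4a1, a marker of B cells before the plasma cell stage, had 0 to 4 counts in the young and 0 to 2 in the old mice. Cd22 reached 33 counts in young replicate 4 and 15 to 40 in the old mice, against 0 to 6 in the other young mice, and is also a gene of microglia (log2 fold change 1.69, edgeR, adjusted p = 0.224). The median log2 fold change of the 4 genes was 0.066.

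V segments have rows of their own but are parts of the same antibody transcripts as the constant genes. Their counts are therefore not independent of those of Igkc. Of the 218 annotated segments 88 had a count in any mouse, 81 of them in an old mouse and 17 in a young one. Their summed counts were 5, 6, 8, 4 and 4 in the young and 54, 11, 155 and 73 in the old mice. Every old mouse was above every young mouse, and old replicate 3 was the lowest old mouse. Scaled to the library, the sums were 0.318 ± 0.146 CPM in the young (SD, n = 5) and 4.10 ± 3.25 CPM in the old mice (n = 4), a difference of 3.78 CPM (two-sided exact permutation test, p = 0.0159, the smallest it can give). Without old replicate 4 the difference was 2.32 CPM (exact permutation, p = 0.0357, again the smallest possible). Kappa segments made up 44, 7, 115 and 52 and heavy chain segments 9, 4, 33 and 20 of the old counts, with lambda segments at 1, 0, 7 and 1.

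**Figure D5:**
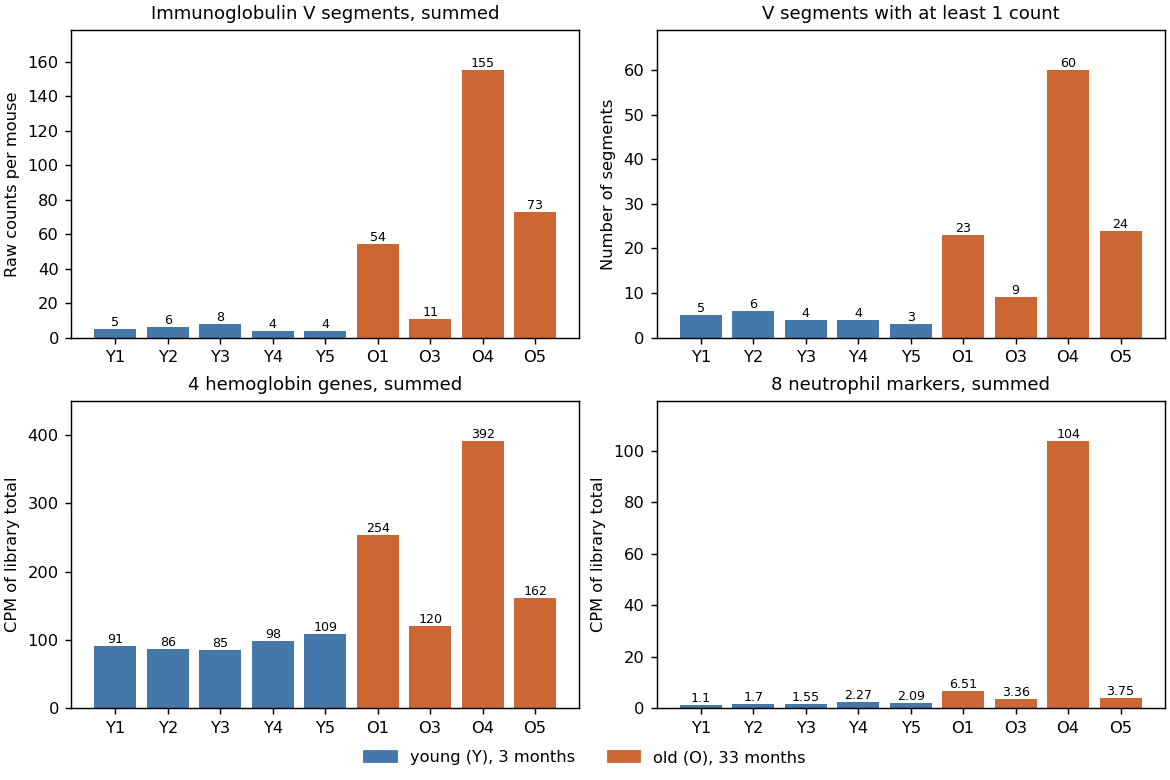
Summed raw counts of immunoglobulin V segments and number of segments with a count (upper panels), and summed CPM of 4 hemoglobin genes and of 8 neutrophil markers (lower panels), 1 bar a mouse, in 5 young (Y, blue) and 4 old (O, orange) brains. Old replicate 4 was highest in all 4 panels, with 155 counts, 60 segments, 392 CPM and 104 CPM.

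The segments differed from mouse to mouse. The number with at least 1 count was 5, 6, 4, 4 and 3 in the young and 23, 9, 60 and 24 in the old mice and was highest in the mouse with the most V counts. Among the old mice 54 segments were seen in exactly 1 mouse, 20 in 2, 6 in 3 and 1 in all 4. Only 18 segments had 5 or more counts over all mice. At 11 to 155 V counts per old mouse a segment can be missed by sampling, so the tally does not measure how far mice share segments. Igkv3-7 led in old replicate 1, with 14 of 54 V counts (25.9%, exact 95% interval 15% to 39.7%). Igkv3-4 led in old replicate 4, with 34 of 155 (21.9%, 15.7% to 29.3%), and Igkv3-2 in old replicate 5, with 18 of 73 (24.7%, 15.3% to 36.1%). In old replicate 3 the highest segments, Ighv3-6 and Igkv4-59, had 2 of 11 counts each. In the young mice no segment had more than 3 counts (Ighv1-39 and Igkv14-111 in replicate 3), and Igkv4-91 led in young replicate 5 with 2 of 4 counts, while in young replicates 1, 2 and 4 every segment seen had 1.

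The leading segments of old replicates 1, 4 and 5 were neighbours of 1 family. Igkv3-7 had no count outside old replicate 1. Igkv3-4 had 3 in old replicate 1 and no others outside old replicate 4, and Igkv3-2 had 1 in old replicate 1, 2 in old replicate 4 and 1 in young replicate 2. The end of each of these transcripts is shown, since reads can be given to 1 segment only where the segments differ. They come from GENCODE M21 on GRCm38, plus strand, at chr6:70607738-70608036 (Igkv3-7), chr6:70672079-70672377 (Igkv3-4) and chr6:70698769-70699067 (Igkv3-2). Each window lies in the last exon. Capitals mark the 50 positions at which the 3 segments are not all the same.
Igkv3-7: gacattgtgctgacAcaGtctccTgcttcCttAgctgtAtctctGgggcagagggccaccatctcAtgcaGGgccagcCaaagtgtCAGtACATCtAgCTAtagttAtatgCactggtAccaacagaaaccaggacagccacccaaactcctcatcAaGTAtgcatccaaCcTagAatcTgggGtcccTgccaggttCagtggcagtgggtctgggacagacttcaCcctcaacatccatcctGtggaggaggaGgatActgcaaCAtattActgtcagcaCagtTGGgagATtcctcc
Igkv3-4: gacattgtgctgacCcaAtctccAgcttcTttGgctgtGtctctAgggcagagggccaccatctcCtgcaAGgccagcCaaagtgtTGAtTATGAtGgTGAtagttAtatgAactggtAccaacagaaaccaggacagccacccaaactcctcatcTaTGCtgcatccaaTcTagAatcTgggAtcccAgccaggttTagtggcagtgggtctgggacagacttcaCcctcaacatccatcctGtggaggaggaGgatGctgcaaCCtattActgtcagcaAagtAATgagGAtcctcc
Igkv3-2: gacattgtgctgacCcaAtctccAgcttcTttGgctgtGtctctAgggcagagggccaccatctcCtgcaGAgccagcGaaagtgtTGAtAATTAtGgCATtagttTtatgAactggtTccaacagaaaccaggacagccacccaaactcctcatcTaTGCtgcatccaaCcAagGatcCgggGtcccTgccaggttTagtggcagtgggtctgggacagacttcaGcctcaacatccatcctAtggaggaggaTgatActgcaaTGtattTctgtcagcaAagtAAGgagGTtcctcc
Igkv3-2 and Igkv3-4 were identical at 274 bases (91.6%), Igkv3-4 and Igkv3-7 at 262 (87.6%) and Igkv3-2 and Igkv3-7 at 259 (86.6%). The longest run without a difference was 70, 60 and 37 bases in these pairs. Antibody genes also mutate in B cells, so counts of single segments are uncertain.

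Signals that draw and hold lymphocytes were read from a list of 21 genes, of which 19 had a row and 9 passed the filter. Cxcl10, a chemokine for T cells, was the 1 called in that fit. Like Igkc, it passed the filter only through the old mice. In the fit of all genes it was called too (log2 fold change 2.15, edgeR, adjusted p = 5.98e-05). Its counts were 4, 4, 2, 11 and 2 in the young and 20, 15, 23 and 23 in the old mice, and its log2 fold change was 2.17 ± 0.35 (SE, edgeR, adjusted p = 0.000756). The ages did not overlap. With the hemoglobin covariate Cxcl10 was at 2.10 and no longer called (edgeR, adjusted p = 0.051), and with the neutrophil covariate it was called (2.08, 0.0148). In the fit of all genes Ccr1, a receptor of Ccl5 that myeloid cells carry, was also called, with 5, 0, 1, 5 and 2 young and 11, 7, 9 and 10 old counts (log2 fold change 1.83 ± 0.47, SE, edgeR, adjusted p = 0.0123). The call of Ccr1 was lost with the hemoglobin covariate (1.81, adjusted p = 0.309), the neutrophil covariate (1.93, 0.087) and limma on log2(TPM + 1) (0.315). Cxcl13, the chemokine of B cell follicles, had 96 counts in old replicate 1, 2, 7 and 6 in the other old mice and 0 to 1 in the young (edgeR, adjusted p = 0.0739).

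Antigen presentation to T cells moved with age in most of its genes. All 10 genes of the list passed the filter and 8 were called higher, at a median log2 fold change of 0.85 over the 10. H2-K1, the class I molecule that CD8 T cells read, rose from 303 to 608 young counts to 882 to 1113 old counts (log2 fold change 1.24, edgeR, adjusted p = 7.77e-06). Tap2, of the peptide transporter, rose by 0.76 (adjusted p = 7.77e-06), H2-D1 by 0.88 (0.000432) and Tap1 by 0.96 (0.00355). Cd74, the invariant chain of class II, did not pass (0.68, adjusted p = 0.421), with 317 counts in young replicate 4 against 63 to 80 in the other young mice. The class I genes are close copies of each other, so reads that they share may not have been counted. Of the 8 pan-leukocyte genes 7 passed the filter, at a median log2 fold change of 0.65. Of these edgeR called 0, DESeq2's Wald test 1 and limma on log2(TPM + 1) 2, and 5 had an unadjusted p under 0.05 in edgeR. Ptprc had 43 to 245 young and 108 to 187 old counts.

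Within each age, the genes whose log2 CPM varied over the 9 mice most like Igkc included Hopx (r = 0.98), B3gnt5, Tmem206 and Tmem250-ps (0.93). Those most like the sum of the 3 CD3 chains were Gm26631 (0.99), Lncpint, Gm42942, Rpsa-ps10 and Ap2b1 (0.95). These are among the highest of 18489 correlations over few mice, after the mean of each age was subtracted, and are a description.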

How the data were processed

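Whole-brain RNA of 5 young and 4 old mice was sequenced with polyA selection. The authors trimmed the reads with Trimmomatic, aligned them to GRCm38 (mm10 in the submitters' notes) with STAR and counted uniquely mapped reads on exons with featureCounts. They deposited whole-number counts per Ensembl gene, TPM (counts per gene length, scaled to a fixed sum per library, with gene lengths not given in the sources used here) and counts divided by size factors, the last not used here. In each table, 1 column matched no listed sample and was used in no step.

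Counts were tested with edgeR 4.0.16 in R 4.3.3 (quasi-likelihood test, robust prior, TMM, filterByExpr with a minimum count of 10 and a minimum total of 15). Members lost to the filter were read from a fit of all 35028 genes with a count, with edgeR's deviances adjusted for small counts. Standard errors were the log2 fold change over the root of the F statistic. The robust prior and the deviance were chosen after the data were seen, and so were 4 of the alternatives (no robust prior, the other deviance, a neutrophil covariate, both mice numbered 4 left out). The other alternatives were other size factors, DESeq2 1.42.0, limma 3.58.1 on log2(TPM + 1) and log2(TPM + 0.1), other filters, a replicate block, a hemoglobin covariate and each mouse left out. Sums per mouse were compared by exact permutation (scipy). Exact binomial intervals and limits for a count of 0 (3 counts) cover counting error only, and they rest on 14229259 to 21150439 counts per library.

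On simulated counts for 18492 genes, 200 of them changed by a log2 fold change of 1 or 2, the filtered fit called 85.5% and 99.5% of these. In the fit of all genes, on 33592 and 33619 genes, it called 69.5% and 97.5%. Unchanged genes made up 3.39% and 0.995% of the calls in the filtered fit, and 5.44% and 2.5% in the fit of all genes. With no change, both called 0. The deviance of the fit of all genes was chosen because it made fewer false calls on simulated counts. That 0 is therefore no independent check of it. The simulated rates were not split by count level. They therefore do not give the rate for genes as low as the members lost to the filter, at 11 to 47 counts over all mice. Of those members Cd8a (6.85-fold) and Ccl5 (3.52-fold) were called in the fit of all genes. Cd3e (1.13-fold), Cd3d (3.75-fold), Nkg7 (4.23-fold) and Cd3g (8.28-fold) were not. Libraries of 1 age differed by more than sampling noise (lowest chi-square per degree of freedom 4.04 in the young and 4.74 in the old). Symbols and positions came from GENCODE M21, which held none for 259 IDs.

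The members, gene lists and tests were chosen with earlier results of these data known. Named are all members, up to 4 called genes of each list by smallest p, constant regions with at least 10 counts, the V segment with most counts in each mouse, and the 5 genes most like Igkc or the CD3 sum. Further genes in the text were picked once their values were known, and some genes that these rules name are not reported here.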

Additional observations from a re-analysis of the deposited data

Results flagged for a closer look

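A gap test within each age (Dixon's ratio on log2 CPM) was run on 32 groups of 4 or 5 mice, the 9 members, the V segment and T cell receptor sums and 5 marker sums at each age. It set a mouse apart in 4 groups, and chance alone would do so in about 1 in 20 groups, 1.6 of 32. Cd3g stood apart in young replicate 4 (ratio 1), where it had 1 count and the other young mice 0. With the others tied at 0, any count gives a ratio of 1, so this flag carries no weight against the 1.6. Ighm stood apart in young replicate 4 (ratio 0.856), with 433 counts against 233 to 311 in the other young mice. In old replicate 4 the platelet markers (ratio 0.971) summed to 15.8 CPM against 4.90 to 5.07 CPM in the other old mice, and the monocyte markers (ratio 0.851) to 11.4 CPM against 1.12 to 1.58 CPM. Neither Igkc nor the V segment sum of old replicate 4 passed the gap test.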

How the results depend on the processing

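The fit of filtered genes called 463 genes, and 189 with the hemoglobin covariate, 267 with the neutrophil covariate and 2031 at an adjusted p under 0.05 alone. The 1 member called there, Igkc, was kept under other size factors, DESeq2's Wald test and the replicate block, while 0 members were called under limma on TPM with either pseudocount and under the hemoglobin covariate, 2 with no filter, and 0 to 1 as single mice were left out. The fit of all genes called 2 members, Cd8a and Ccl5. On all genes DESeq2's Wald test called 1, which was Igkc, and gave no adjusted p for Cd8a or Ccl5. The number called was 1 with the hemoglobin covariate (Cd8a), 0 by limma on TPM, 4 with edgeR's other deviance and without both mice numbered 4, and 1 to 3 as single mice were left out. Cd8a kept its call in 17 of 20 alternatives, lost it in limma on TPM, and DESeq2 gave it no adjusted p. Limma on TPM, with either pseudocount, called none of Cd8b1, Cxcr6, Ccr1, Ighg2b and Lcp2, which edgeR called.

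Directions turned for 3 members. Cd3e turned from 0.18 to -0.25 with the hemoglobin and -0.44 with the neutrophil covariate, and leaving out single mice took it from -0.096 to 0.55. For Ighm (-0.047) the range on leaving out single mice was -0.27 to 0.11. Jchain turned to -1.25 and -0.47 with the covariates. The V segment difference of 3.78 CPM was 2.32 to 4.89 CPM as single mice were left out, and 2.29 CPM without both mice numbered 4 (exact permutation, p = 0.0571, the smallest that 4 against 3 mice allow). The T cell receptor difference of -0.447 CPM ran from -0.683 to -0.228 CPM, and for constant genes alone it was -0.965 CPM (exact permutation, p = 0.0159, the smallest possible). The cause of these changes was not tested. Same-numbered mice did not deviate together (r from -0.118 to 0.17 over 4 pairs), so numbers were not taken as pairs. With the replicate block Igkc stood at 4.05 (edgeR, adjusted p = 0.0114), Cd8a at 2.88 (0.0332) and Ccl5 at 1.91 (0.0944, no longer called), and the calls of Cd8b1 (0.135), Cxcr6 (0.152), Ccr1 (0.0678), Ms4a7 (0.0555) and Plac8 (0.0933) were lost, while Lag3 was called (1.10, 0.00625).

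A count of 0 allows up to 0.142 to 0.211 CPM in a library, above the old level of some members, and a fold against 1 to 12 young counts has wide bounds.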

Other observations

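Of 7 markers of border macrophages, which line the vessels and meninges, 6 passed the filter and 3 of these were called higher in old brain by edgeR, beside 2.13% of all genes that passed. The other 3 were not called. F13a1 had 38, 33, 19, 45 and 22 counts in the young and 67, 40, 100 and 59 in the old mice (log2 fold change 1.13, edgeR, adjusted p = 0.00214), Ms4a7 0 to 12 and 8 to 29 (1.90, 0.0199) and Cd163, the scavenger receptor for hemoglobin, 41 to 57 and 52 to 103 (0.69, 0.0189). None of the 3 was called with the hemoglobin covariate (adjusted p = 0.438, 0.296 and 0.38) or the neutrophil covariate (0.105, 0.142 and 0.149). Ms4a7 was not called without young replicate 1 or old replicate 4 or 5 (edgeR, adjusted p from 0.0504 to 0.0682), nor Cd163 without young or old replicate 1 (0.0532 and 0.0771). Collagen gene Col3a1 was lower, with 80 to 122 young and 32 to 78 old counts (log2 fold change -0.89, edgeR, adjusted p = 0.0136), and was not called with the hemoglobin covariate (-1.21, 0.106).

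Summed marker levels of neurons ran from 4777 to 5232 CPM in the young and from 4759 to 5231 CPM in the old mice, of choroid plexus from 524 to 710 and from 437 to 742 CPM, and of meninges and fibroblasts from 165 to 196 and from 148 to 252 CPM, where old replicate 4 was highest.

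Plac8, a marker of monocytes that lymphocytes share, was called in edgeR's fit of all genes, with 3, 0, 2, 1 and 2 young and 3, 4, 14 and 8 old counts (log2 fold change 2.14, adjusted p = 0.0171). Its call was lost without old replicate 4 (1.65, edgeR, adjusted p = 0.165) or young replicate 2 (0.0549) and with the hemoglobin and neutrophil covariates (0.687 and 0.466). The delta constant gene Trdc of the T cell receptor had 3 to 13 counts in the young and 2 to 6 in the old mice (log2 fold change -1.0, edgeR, adjusted p = 0.215).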
